A study of Mus musculus with 2 samples.

Results

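Trem2, Apoe, Spp1, Gpnmb, Fabp5, Lpl, Cd9, Lgals3, Plin2 and Abca1, genes that act in lipid sensing, transport and storage and are linked to Trem2-positive macrophages, were followed in myeloid cells of mouse colonic polyps. These 10 genes, of 32285 in the deposited gene lists, were taken by name and not by a cut on a measured value, although earlier results of these data were known. Each was measured as counts of unique molecular identifiers (UMIs, tags that count captured RNA molecules) per cell, by single-cell RNA-seq of 1 WT library and 1 Clec7a-/- library. Clec7a encodes Dectin-1, a receptor of innate immune cells for β-glucans of fungi, and was not analysed here.

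Both groups were C57BL6/J mice, 26 weeks old by the labels, that had received azoxymethane (AOM, a colon carcinogen) and 3 cycles of 1% dextran sodium sulfate (DSS, which injures the colonic epithelium). At 16 weeks after AOM, cells that infiltrated the colorectal polyps were sorted on CD11b and CD11c, and cells of several mice of a genotype were pooled into 1 library. The labels call the second group KO, and the study's methods give the genotype as Clec7a-/-, a germline deletion that is absent from the WT group. The study asked how loss of Dectin-1 changes polyp-infiltrating myeloid cells.

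TREM2 is a surface receptor of macrophages and microglia that binds lipids and lipoproteins, among them ApoE, and signals through the adaptor TYROBP. Macrophages that take up much lipid, in atherosclerotic plaques, obese fat and tumors, are known to express this set together, with LPL releasing fatty acids from lipoproteins, FABP5 carrying them, perilipin 2 coating lipid droplets and ABCA1 exporting cholesterol. Neutrophils, monocytes and dendritic cells can express several of these genes too.

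The WT library held 3467 barcodes with 15869215 UMIs and the Clec7a-/- library held 3080 barcodes with 11808230 UMIs. After barcodes with under 200 or over 4000 genes, or with over 5% of UMIs from mitochondrial genes, were set aside, 2696 WT cells (median 3412.5 UMIs) and 1999 Clec7a-/- cells (median 2671 UMIs) remained. The libraries shared 17 barcodes, 6 of them among the cells kept. Clustering left out the 10 genes among its features, and its resolution was raised until at least 15 clusters formed. The 15 clusters so obtained were named from marker genes. The sort was for myeloid cells, but 65 WT and 121 Clec7a-/- cells formed a T-cell-like cluster, which served as background. With 1 library per genotype, genotype and library cannot be told apart and no test between them was possible, so every interval below covers counting error only, not the spread between mice.

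All 10 genes lie on autosomes and are annotated as protein-coding (GENCODE M21, GRCm38): Trem2 at chr17:48346401-48354147, Apoe at chr7:19696109-19699188, Spp1 at chr5:104435118-104441050, Gpnmb at chr6:49036546-49070929 and Fabp5 at chr3:10012548-10016607. Lpl lies at chr8:68880491-68907448, Cd9 at chr6:125460266-125494791, Lgals3 at chr14:47367751-47386160, Plin2 at chr4:86648386-86670060 and Abca1 at chr4:53030787-53159895. Apoe, Cd9, Plin2 and Abca1 are on the minus strand and the other 6 on the plus strand.

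RefSeq promoter windows (GRCm38.p6, from 250 bases before to 50 bases after a transcription start) were at hand for 8 of the 10 genes, as 11 windows. Both strands were searched for TGANTCA, the AP-1 motif, for CACGTG, the E-box that MITF and TFE factors among others recognise, and for TCACGTGA, a longer form that contains the E-box. TGANTCA lay in 2 of the 11 windows, those of Trem2 and Gpnmb, and in 7.81% of all 32851 windows. CACGTG lay in 2 windows, those of Abca1 and Plin2, and in 7.15% of all windows. TCACGTGA lay in none of the 11 and in 0.974% of all. The 4 stretches with a match are shown because Trem2 with Gpnmb, and Abca1 with Plin2, are followed together below. Capitals mark the match, and each sequence is written 5′ to 3′ on the strand of its gene. The Trem2 stretch (chr17:48346342-48346400, plus strand) ends at the base before the start, and the match begins 9 bases before it. The Gpnmb stretch (chr6:49036516-49036542, plus strand) holds the match with 10 bases on each side, and the match begins at base 9 after the RefSeq start. In Abca1 (chr4:53159987-53160092, minus strand) the match begins 147 bases before the start, and in Plin2 (chr4:86670058-86670113, minus strand) it begins 4 bases before it. A match is a description of these letters and not of binding.
Trem2: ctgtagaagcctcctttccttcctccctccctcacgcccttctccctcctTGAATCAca
Gpnmb: caggggcaagTGACTCAtgagcacgag
Abca1: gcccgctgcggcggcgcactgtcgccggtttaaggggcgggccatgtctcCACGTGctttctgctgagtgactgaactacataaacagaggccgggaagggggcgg
Plin2: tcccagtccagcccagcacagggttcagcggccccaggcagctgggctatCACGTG

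Trem2, the lipid receptor, was highest in macrophage-like cells among the named classes in both libraries and near zero in T-cell-like cells. Levels are summed UMIs of a gene per 1000000 UMIs of all genes in a class (CPM), with exact 95% Poisson intervals. The macrophage-like class was made of 2 clusters, both with C1qa, C1qb, C1qc, Ms4a7, Csf1r and Adgre1. In it Trem2 stood at 242 CPM (228 to 258) in WT and 234 CPM (214 to 256) in Clec7a-/-. Over both libraries the level fell from 239.7 CPM there to 67.1 CPM (56.2 to 79.5) in transitional-like cells and 23.1 CPM (16.7 to 31.1) in monocyte-like cells. Neutrophil-like cells had 9.37 CPM (5.80 to 14.3), and the 3 dendritic cell (DC)-like classes and T-cell-like cells had between 2.23 and 4.03 CPM. The intervals of macrophage-like, transitional-like, monocyte-like and neutrophil-like cells did not overlap, whereas those of the DC-like and T-cell-like classes overlapped each other. Cluster 11, led by the proliferation genes Pclaf and Birc5, was not among these classes. Its 14 WT and 21 Clec7a-/- cells held 39 and 37 Trem2 UMIs, with 1403 and 1655 UMIs of the 3 C1q genes.

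**Figure D1:**
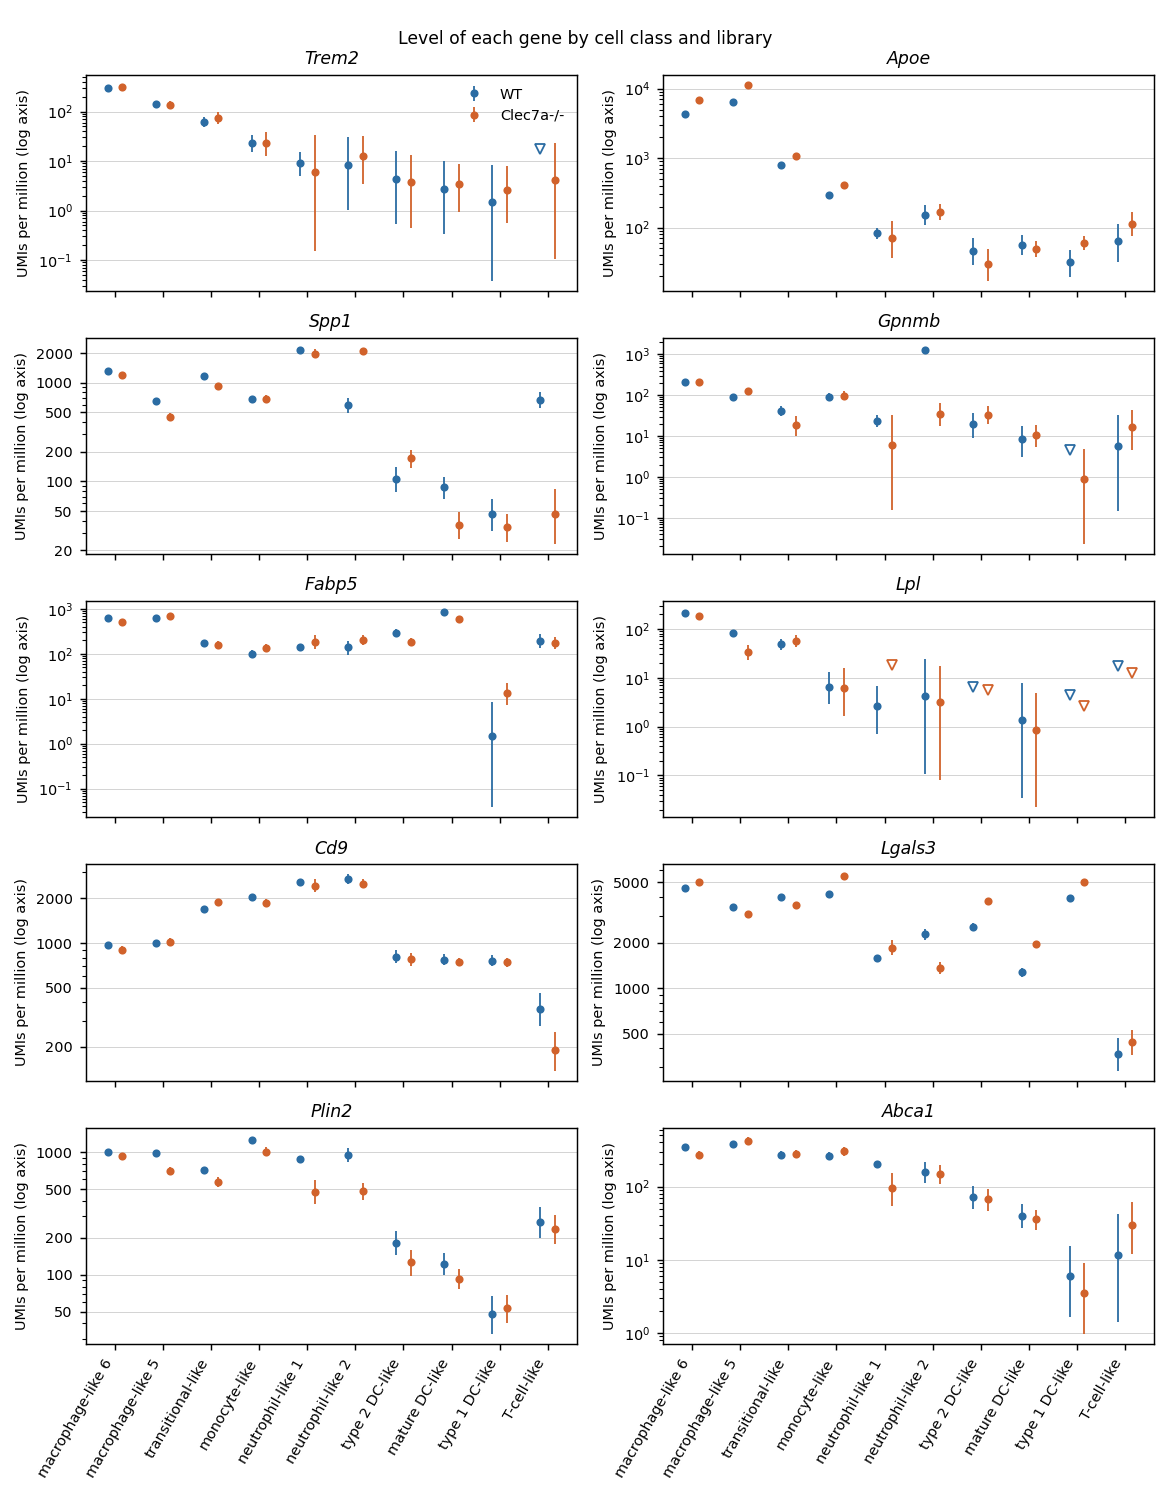
Level of each of the 10 genes (CPM, log axis) in 10 cell classes or clusters, WT in blue and Clec7a-/- in orange. Points are summed UMIs of 1 library and bars are exact 95% Poisson intervals, and an open triangle marks the level of 3 UMIs where none was counted. In both libraries Trem2 and Lpl are highest in macrophage-like cluster 6 and Apoe in macrophage-like cluster 5. Spp1 and Cd9 peak in a neutrophil-like cluster in each library, and Gpnmb stands out in WT cells of neutrophil-like cluster 2.

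Lpl, which releases fatty acids from lipoproteins, followed Trem2 most closely of the other 9 genes. Its level over both libraries was 147 CPM (138 to 157) in macrophage-like cells and 52.1 CPM (42.6 to 63.1) in transitional-like cells, and at most 6.43 CPM in the other named classes. The proliferating cluster 11, outside these classes, held 23 WT and 27 Clec7a-/- Lpl UMIs in 14 and 21 cells, at 157 CPM in Clec7a-/-. No Lpl UMI was counted in type 1 DC-like, type 2 DC-like or T-cell-like cells of either library. Across 24 points (clusters by library with at least 20 cells), the Pearson r of log2(CPM + 10) with Trem2 was 0.974 for Lpl, which ranked 2 of 6909 genes with at least 200 UMIs. The other genes among the 5 most like Trem2 were C1qa (0.974), C1qc (0.973), C1qb (0.966) and Ms4a7 (0.964), which were used to name macrophage-like cells. These points share the libraries and the depth of each cluster, so r is a description. By Spearman's rho 3 of the 5 leading genes were shared, and Lpl again ranked 2.

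Apoe, the lipoprotein component that TREM2 binds, had r = 0.944 with Trem2 and ranked 11. Abca1, the cholesterol exporter, had r = 0.756 (rank 202) and Plin2, of lipid droplets, r = 0.687 (rank 339). Gpnmb, a glycoprotein of lysosome-rich macrophages, had r = 0.566 (rank 677), Lgals3, a galectin of phagocytes, 0.556 (rank 706), Fabp5 0.516 (rank 839), Spp1, the secreted protein osteopontin, 0.508 (rank 864) and the tetraspanin gene Cd9 0.231 (rank 2295). By Spearman's rho the order differed, with Abca1 at rank 22 above Apoe at rank 50, Gpnmb at 121, Plin2 at 142, Cd9 at 868 and Fabp5 last at 1449. Of the 10 genes, 5 had their highest level over both libraries in macrophage-like cells (Trem2, Apoe, Gpnmb, Lpl and Abca1) among 8 named classes. For Gpnmb the order was not resolved over both libraries together, since macrophage-like cells had 164 CPM (154 to 175) and neutrophil-like cells 158 CPM (142 to 175). By point values alone, the libraries taken singly had opposite orders for this gene. In WT, Gpnmb was at 162 CPM in macrophage-like and 194 CPM in neutrophil-like cells. Few cells carried the latter level, since 17 of 683 WT neutrophil-like cells held 292 of the 342 UMIs. In Clec7a-/- it was at 168 and 24.97 CPM, the latter on 12 UMIs.

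The other 5 genes were highest elsewhere over both libraries. Spp1 was at 1958 CPM in WT and 2059.7 CPM in Clec7a-/- neutrophil-like cells, against 1064 and 857 CPM in macrophage-like cells. Cd9 was at 2563 CPM (2497 to 2630) in neutrophil-like cells and 972 CPM (948 to 997) in macrophage-like cells. Fabp5 was at 685 CPM (648 to 723) in mature DC-like cells and 627 CPM (608 to 647) in macrophage-like cells, so that the lower bound of the first just passed the upper bound of the second. By library, its mature DC-like level was above its macrophage-like level in WT but not in Clec7a-/-. In type 1 DC-like cells Fabp5 was at 8.92 CPM, the lowest of the 8 classes. Lgals3 was at 4651 CPM in both type 1 DC-like and monocyte-like cells and at 4154 CPM (4103 to 4205) in macrophage-like cells. Plin2 was highest in monocyte-like cells, at 1171 CPM (1123 to 1221), against 945 CPM (921 to 970) in macrophage-like cells.

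Shares of cells with a UMI gave the same picture at equal depth. Each cell was thinned to 1000 UMIs, which left out 6.90% of WT and 15.4% of Clec7a-/- cells that held fewer. Trem2 was then seen in 92 of 497 WT macrophage-like cells (18.5%, exact binomial 95% interval 15.2 to 22.2) and in 55 of 276 Clec7a-/- ones (19.9%, 15.4 to 25.1). Without thinning these shares were 64.8% and 61.6%. It was seen in 0 of 56 WT and 0 of 91 Clec7a-/- T-cell-like cells, which allows shares of up to 5.36% and 3.30% (3 cells of the total). The median depths before thinning were 8198 and 6623 UMIs in macrophage-like cells against 2284.5 and 1823 UMIs in T-cell-like cells. Apoe was in 472 of 497 WT and 268 of 276 Clec7a-/- macrophage-like cells, but also in 8.93% and 8.79% of T-cell-like cells. Apoe shares between 2.07% and 6.19% in the 3 DC-like classes were below that background, as was the Apoe share of WT neutrophil-like cells (7.27%). The background shares rest on 56 WT and 91 Clec7a-/- cells, so this order was not shown to exceed counting error. Spp1 was in 57.0% of WT and 55.0% of Clec7a-/- neutrophil-like cells and in 36.2% and 26.1% of macrophage-like cells, against 17.9% and 5.49% of T-cell-like cells.

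**Figure D2:**
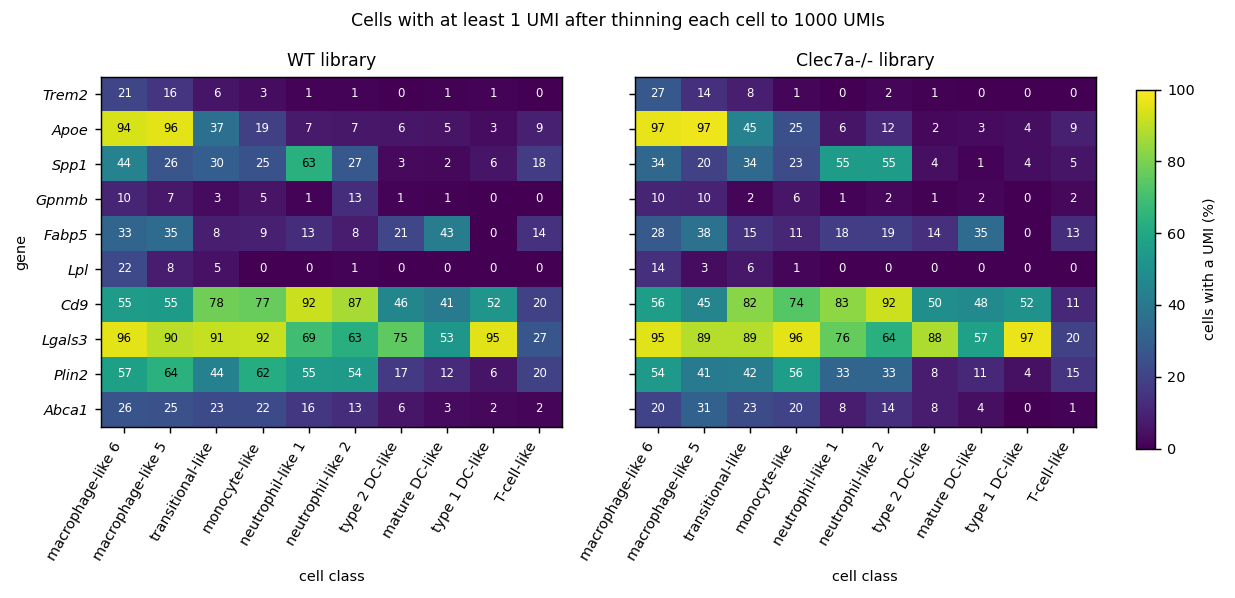
Percent of cells with at least 1 UMI of each gene (rows) in 10 clusters (columns), after each cell was thinned to 1000 UMIs, for the WT library (left) and the Clec7a-/- library (right). Lgals3 is near ceiling in macrophage-like, monocyte-like and type 1 DC-like cells, Apoe in macrophage-like cells, and Trem2 and Lpl are seen mostly in macrophage-like and transitional-like clusters.

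The 2 macrophage-like clusters divided the genes. Cluster 6 (272 WT and 124 Clec7a-/- cells) was led by Mfge8, which bridges dying cells to phagocytes, with C1q genes, and Trem2 and Lpl were among its 10 leading genes although they were not clustering features. Cluster 5 (251 WT and 170 Clec7a-/- cells) was led by Pgf and Adamdec1 and included the chemokine gene Pf4 and the protease gene Mmp13 among its 10 leading genes. In the WT library Trem2 was at 302 CPM (281 to 324) in cluster 6 and 144 CPM (126 to 164) in cluster 5. The Clec7a-/- library had 318 CPM (285 to 354) and 137 CPM (115 to 163), so cluster 6 was above cluster 5 in both libraries with no overlap of intervals. Lpl, Gpnmb and Spp1 had the same order, with Lpl at 215 against 81.0 CPM in WT and 180.3 against 33.5 CPM in Clec7a-/-. Gpnmb was at 208 against 87.9 CPM in WT and 205 against 126 CPM in Clec7a-/-. Spp1 was at 1313 against 656 CPM in WT and 1208 against 452 CPM in Clec7a-/-. Apoe had the opposite order, with 4329 CPM in cluster 6 and 6404 CPM in cluster 5 of WT, and 6811 and 11292 CPM in Clec7a-/-. Clusters were drawn from these same cells, so these differences are descriptions.

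Clustered again, the 817 macrophage-like cells formed 4 subclusters with 10 components, but 3 with 20 components, where Trem2 was at 239 to 255 CPM in each. The largest of these 3 held 673 cells, 315 of them from cluster 5. Subclusters 0 and 1 of the 4 had 344 and 322 cells, 293 and 18 of them from cluster 5. The coarser division gave no separate Trem2 levels for those 2. Subcluster 2, with 110 cells (49 WT and 61 Clec7a-/-), was led by the heat-shock genes Hspa1a and Hspa1b with Hes1 and the chemokine gene Ccl7, and its cells held a median of 1305.5 UMIs against 6926 to 9214 in the others. It had the highest Apoe level of the 4 (11227 CPM) and the lowest Gpnmb (29.4 CPM), Spp1 (202 CPM), Lgals3 (1740.2 CPM), Cd9 (471 CPM) and Plin2 (521 CPM). Its Trem2 level was 265 CPM (203 to 339) on 63 UMIs, above the 155 CPM (140 to 171) of subcluster 0. Its interval overlapped that of subcluster 1, at 308 CPM (288 to 328). With 20 components the subcluster led by Hspa1a had 108 cells, with Apoe at 11267 CPM, Gpnmb at 44.7 CPM and Spp1 at 134 CPM. Subcluster 3, with 41 cells (31 WT and 10 Clec7a-/-), was led by the neutrophil genes Retnlg, S100a8 and S100a9 and had the highest Spp1 (1729 CPM), Cd9 (1414 CPM), Fabp5 (819.6 CPM) and Plin2 (1140.0 CPM) levels.

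Among WT macrophage-like cells of equal depth, those with a Trem2 UMI had more Spp1 and Gpnmb over the class as a whole. The Gpnmb ratio within clusters, and most other ratios, depended on the depth or the cluster. Cells were thinned to 2000 UMIs, which left 168 WT cells with and 299 without a Trem2 UMI, and 86 and 173 Clec7a-/- cells. In WT, Gpnmb was at 339 CPM in cells with and 119 CPM in cells without a Trem2 UMI, a log2 ratio of 1.51 (conditional exact 95% interval 1.07 to 1.96). In Clec7a-/- it was at 151 and 165 CPM (-0.11, -0.85 to 0.57). At 1000 UMIs per cell the Gpnmb ratios were 1.26 (0.53 to 1.93) in WT and 0.34 (-0.83 to 1.30) in Clec7a-/-, so that the intervals of the libraries overlapped there although they did not at 2000 UMIs. Within WT cluster 5 the Gpnmb ratio changed sign with depth, from -0.89 (-2.71 to 0.35) at 2000 UMIs to 1.70 (0.39 to 2.88) at 1000 UMIs, on 5 and 10 UMIs in the cells with Trem2. Within WT cluster 6 it was 1.79 (1.25 to 2.39) and 0.98 (0.05 to 1.82). The 25 WT cells of cluster 6 with at least 5 Gpnmb UMIs held 442 of that cluster's 541 Gpnmb UMIs, so few cells carried the level.

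Spp1 had ratios of 0.88 (0.71 to 1.06) at 2000 UMIs and 0.85 (0.56 to 1.13) at 1000 UMIs in WT. In Clec7a-/- it had 0.57 (0.27 to 0.87) and 0.20 (-0.37 to 0.71), so the interval at the lower depth included 0. In WT cluster 5 the Spp1 ratio was 1.30 (0.96 to 1.62) and 0.69 (0.04 to 1.27), although 33.3% of cells with and 34.4% without a Trem2 UMI held Spp1 at 2000 UMIs. In WT cluster 6 it was 0.50 (0.29 to 0.71) and 0.79 (0.45 to 1.11). Lpl had 0.52 (0.04 to 0.99) in WT and 1.07 (0.20 to 1.94) in Clec7a-/- at 2000 UMIs, but at 1000 UMIs both intervals included 0 (0.55, -0.20 to 1.22, and 1.19, -0.12 to 2.35). Lgals3 had 0.27 (0.18 to 0.36) in WT and 0.19 (0.05 to 0.32) in Clec7a-/- at 2000 UMIs. Within Clec7a-/- cluster 5 the Lgals3 ratio was -0.02 (-0.27 to 0.22) at that depth. Apoe over the class had 0.06 (-0.03 to 0.14) in WT and -0.03 (-0.11 to 0.06) in Clec7a-/- at 2000 UMIs, and 0.23 (0.09 to 0.37) and 0.06 (-0.08 to 0.20) at 1000 UMIs. Within clusters at 2000 UMIs the Apoe ratio was 0.30 (0.19 to 0.42) in WT and 0.24 (0.11 to 0.38) in Clec7a-/- cluster 6, and 0.05 (-0.08 to 0.19) and 0.21 (0.09 to 0.33) in cluster 5. At 1000 UMIs it was 0.26 (0.06 to 0.45) and 0.09 (-0.14 to 0.30) in cluster 6, and 0.31 (0.10 to 0.50) and 0.31 (0.12 to 0.49) in cluster 5. Cluster 6 held 123 of the 168 WT cells with a Trem2 UMI and 142 of the 299 without one.

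**Figure D3:**
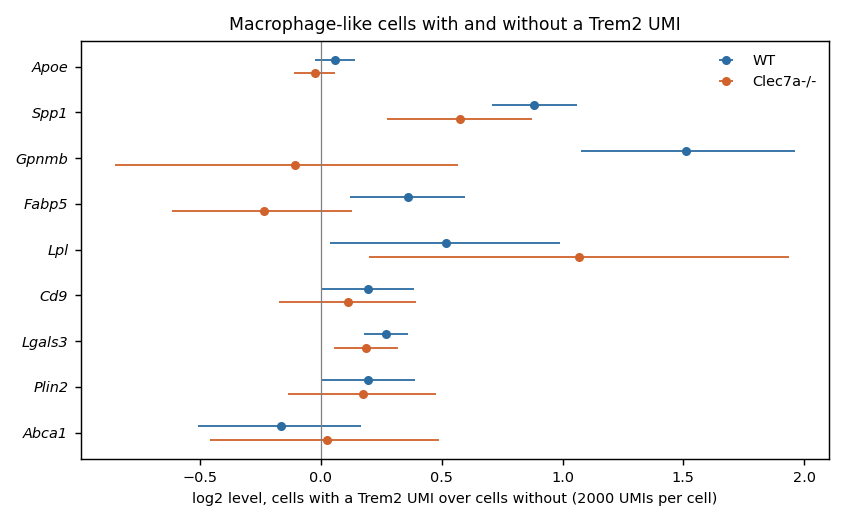
Log2 ratio of the level of each of 9 genes in macrophage-like cells with a Trem2 UMI over those without, at 2000 UMIs per cell, WT in blue and Clec7a-/- in orange. Bars are conditional exact 95% intervals for counting error. Gpnmb is at 1.51 in WT and -0.11 in Clec7a-/-, Spp1 is above 0 in both, and Apoe is near 0 in both over the class as a whole.

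Between the libraries, Apoe was higher in Clec7a-/- macrophage-like cells and Trem2 was not detectably different. Ratios below are log2 of Clec7a-/- over WT with 0.5 UMI added, and a gene was counted as higher or lower when it passed 1.5-fold and had at least 100 UMIs in the class. Of the 10 genes, 1 (Apoe) was higher and 0 were lower in the macrophage-like class, where 1.96% of 5754 genes were higher and 2.92% lower. Trem2 had a ratio of -0.05 (-0.21 to 0.11), which leaves out a change of 1.5-fold in either direction as far as counting error goes. Apoe was at 5116 CPM (5048 to 5185) in WT and 8893 CPM (8762 to 9025) in Clec7a-/-, a ratio of 0.80 (0.77 to 0.83). Lpl was at 164 CPM (152 to 177) in WT and 112 CPM (97.9 to 128) in Clec7a-/-, a ratio of -0.55 (-0.77 to -0.33) that just missed 1.5-fold. Spp1 (-0.31) and Plin2 (-0.28) were lower with intervals below 0, and Gpnmb, Fabp5, Cd9, Lgals3 and Abca1 lay between -0.08 and 0.05. The median ratio was -0.06 for the 10 genes and -0.01 for all genes counted. The 9 neutrophil markers together were at 2035 CPM in WT and 1489 CPM in Clec7a-/- macrophage-like cells with none at 0, and their part in the Spp1 ratio was not tested. The 10 macrophage markers together were at 12176 CPM in WT and 14702 CPM in Clec7a-/-.

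Apoe was higher in both macrophage-like clusters and in several other classes. In cluster 5 its ratio was 0.82 (0.78 to 0.86) and in cluster 6 it was 0.65 (0.61 to 0.70). It was 0.44 (0.30 to 0.57) in transitional-like cells, 0.46 (0.22 to 0.69) in monocyte-like cells and 1.04 (0.84 to 1.23) in the unnamed cluster 4 with markers of neutrophils and monocytes. In neutrophil-like cells it was 0.55 (0.11 to 0.97) on 163 and 65 UMIs. The T-cell-like background moved the same way, from 63.3 to 114 CPM on 11 and 27 UMIs (0.81, with an interval that included 0), and type 1 DC-like cells had 0.92 (0.21 to 1.72) on 21 and 68 UMIs. Apoe UMIs per UMI of the 3 C1q genes were 0.616 in WT and 0.893 in Clec7a-/- macrophage-like cells. They were 2.35 and 2.76 in monocyte-like cells, 0.906 and 1.12 in neutrophil-like cells and 1.57 and 0.964 in T-cell-like cells, all above the macrophage-like ratio of the same library. Mature DC-like (0.683 and 1.39) and type 1 DC-like cells (0.875 and 0.944) were also above it. Transitional-like (0.476 and 0.647) and type 2 DC-like cells (0.553 and 0.471) were below it. The T-cell-like ratios rested on 7 WT and 28 Clec7a-/- C1q UMIs, and what sets these ratios was not tested. Mature DC-like and type 2 DC-like cells, with at most 57 Apoe UMIs in a library, had ratios of -0.20 (-0.80 to 0.42) and -0.62 (-1.66 to 0.38).

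The Lpl ratio was further from 0 in cluster 5 than in cluster 6, although cluster 6 held most Lpl UMIs in both libraries. In cluster 5 Lpl had 129 UMIs in WT (81.0 CPM, 67.6 to 96.3) and 31 in Clec7a-/- (33.5 CPM, 22.8 to 47.6), a ratio of -1.25 (-1.89 to -0.70). The Lpl UMIs of cluster 5 came from 51 of 251 WT cells and 14 of 170 Clec7a-/- cells. In cluster 6 the Lpl ratio was -0.25 (-0.50 to -0.01) on 560 and 192 UMIs. At 1000 UMIs per cell, Lpl was seen in 15.5% (12.4 to 19.0) of WT and 7.97% (5.06 to 11.8) of Clec7a-/- macrophage-like cells. Of the 10 genes, 1 (Apoe) was higher and 1 (Lpl) was lower in cluster 5, where 2.76% of genes were higher and 4.63% lower. In cluster 6, 1 (Apoe) was higher and 0 were lower, with 1.72% and 3.87% of genes. Cluster 6 made up 10.1% (8.98 to 11.3) of WT and 6.20% (5.19 to 7.35) of Clec7a-/- cells kept, and cluster 5 made up 9.31% and 8.50%.

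**Figure D4:**
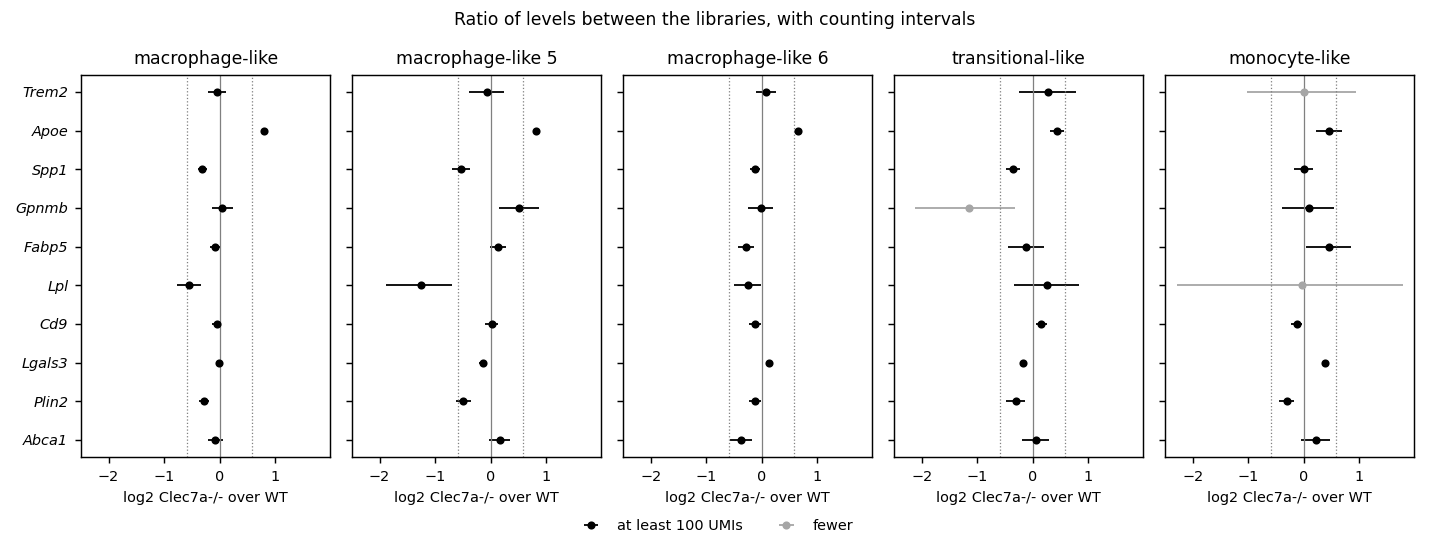
Log2 ratio of Clec7a-/- over WT for the 10 genes in macrophage-like cells, their clusters 5 and 6, transitional-like cells and monocyte-like cells, with conditional exact 95% intervals. Dotted lines mark 1.5-fold and grey points rest on fewer than 100 UMIs. Apoe lies above 0 in all 5 panels and past the line in the first 3, and Lpl is past the line in cluster 5.

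Monocyte-like and transitional-like cells showed no gene past 1.5-fold among those with 100 UMIs. In monocyte-like cells this held for 8 genes, against 3.54% of all genes higher and 4.34% lower. In transitional-like cells it held for 9 genes, against 3.94% of all genes higher and 3.94% lower. Gpnmb there, with 49 and 15 UMIs and so not counted, had a ratio of -1.14 (-2.12 to -0.32). Fabp5 (0.45, 0.04 to 0.85) and Lgals3 (0.38, 0.32 to 0.45) were higher in Clec7a-/- monocyte-like cells with intervals above 0, and Plin2 was lower in both classes (-0.31 in each). Spp1 was at 1185 CPM in WT and 923 CPM in Clec7a-/- transitional-like cells (-0.36, -0.49 to -0.23) and at 683 and 679.9 CPM in monocyte-like cells (-0.01, -0.18 to 0.16). Trem2 in transitional-like cells had 73 and 61 UMIs and a ratio of 0.28 (-0.24 to 0.78).

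Gpnmb over all neutrophil-like cells had a ratio of -2.90 (-3.93 to -2.14), on 342 WT and 12 Clec7a-/- UMIs. This was a larger difference than any of the 10 genes had in macrophage-like, transitional-like or monocyte-like cells. Of the 342 WT UMIs, 292 were in 17 of the 683 WT cells, all in cluster 2, so the class ratio rested largely on those cells. The libraries held the 2 neutrophil-like clusters in different proportions. Cluster 1, led by Retnlg, S100a8, Ngp and S100a9, had 501 WT and 92 Clec7a-/- cells. Cluster 2 had 182 WT and 312 Clec7a-/- cells with a median of 968 UMIs. Its 10 leading genes held 1 of the 9 neutrophil markers, Csf3r, the receptor for G-CSF, and also Gpnmb itself. Over the whole class 0 of 8 genes were higher and 3 (Gpnmb, Plin2 and Abca1) were lower, against 9.62% of all genes higher and 9.49% lower. Abca1 (-0.59, -1.01 to -0.20) lay at the 1.5-fold line and did not pass it with no filter on cells (-0.57) or by the mean over cells (-0.30). Under TMM scaling, which shifted every ratio of this class by -0.13, those shares of all genes were 6.65% and 14.7%. In cluster 1, 0 of 7 genes were higher and 2 (Plin2 and Abca1) were lower, against 11.1% and 10.6% of genes. In cluster 2, 1 of 5 genes (Spp1) was higher and 3 (Gpnmb, Lgals3 and Plin2) were lower, in a cluster where 23.5% of genes were higher and 23.7% lower.

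Plin2, the lipid droplet coat, was lower in both neutrophil-like clusters. It was at 883 CPM in WT and 478 CPM in Clec7a-/- cells of cluster 1 (-0.88, -1.23 to -0.56) and at 952 and 479 CPM in cluster 2 (-0.99, -1.30 to -0.69). After thinning to 1000 UMIs, Plin2 was seen in 55.1% of WT and 32.6% of Clec7a-/- cells of cluster 1 and in 53.8% and 32.6% of cells of cluster 2. That depth left out 76 of 182 WT and 183 of 312 Clec7a-/- cells of cluster 2. Abca1 was at 201 CPM in WT and 95.6 CPM in Clec7a-/- cells of cluster 1 (-1.03, -1.90 to -0.35), the latter on 16 UMIs. In cluster 2 it was at 157 and 147 CPM (-0.10, -0.76 to 0.57).

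Spp1 did not differ detectably over all neutrophil-like cells (0.07, -0.03 to 0.18) but did within cluster 2. In cluster 1 it was at 2169 CPM in WT and 1978 CPM in Clec7a-/- (-0.13, -0.30 to 0.03). In cluster 2 it was at 591 CPM in WT and 2103 CPM in Clec7a-/- (1.83, 1.57 to 2.11). The 9 neutrophil markers together were at 14187 CPM in WT and 23764 CPM in Clec7a-/- cells of that cluster, and their part in the Spp1 ratio was not tested. Lgals3 in cluster 2 was at 2266 CPM in WT and 1356 CPM in Clec7a-/- (-0.74, -0.93 to -0.55), whereas it was 0.24 (0.06 to 0.41) in cluster 1. Cd9, seen in 91.2% of WT and 88.5% of Clec7a-/- neutrophil-like cells after thinning, had ratios of -0.08 and -0.10 in clusters 1 and 2.

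Gpnmb in cluster 2 had 306 UMIs in 182 WT cells (1301 CPM) and 11 UMIs in 312 Clec7a-/- cells (35.1 CPM), a ratio of -5.15 (-6.23 to -4.35). Of the WT UMIs, 292 were in 17 cells with at least 5 each, a number chosen after the values were seen, and the highest cell held 52. None of the 312 Clec7a-/- cells held 5, which allows a share of up to 0.962%, against 9.34% (5.54 to 14.5) of WT cells. Of the 10 macrophage markers 6 were at 0 in these 17 cells. Together the macrophage markers were at 328 CPM, on 9 UMIs, against 535 CPM in the 159 WT cells of the cluster without Gpnmb. The 8 monocyte markers together were higher in the 17 cells, at 1422 CPM on 39 UMIs with 6 at 0, against 991 CPM in the 159 cells. Trem2 had 0 UMIs in the 17 cells. The 9 neutrophil markers together were at 7549.8 CPM in the 17 cells with none at 0, against 15367 CPM in the 159 cells, and their part in the difference was not tested. The median of the 17 cells was 1375 UMIs against 1129.5 in all WT cells of the cluster. Genes of lysosomes were higher in the 17 cells than in the 159, with Psap at 15318 against 7349 CPM, Lamp1 at 2699 against 1279 CPM and Cd68, which is also used as a macrophage marker, at 1678 against 595 CPM. In macrophage-like cells Cd68 was at 1065 CPM. Lgals3 (3684 against 1952 CPM) and Plin2 (1641 against 867 CPM) were also higher there, whereas Il1b was at 401 against 1888 CPM, Csf3r at 438 against 1056 CPM, S100a8 at 2699 against 4440.1 CPM and S100a9 at 2480.1 against 4767 CPM. These comparison genes were picked after their values were seen.

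Over all clusters, 59 WT and 24 Clec7a-/- cells held at least 5 Gpnmb UMIs. In cluster 6 they were 25 of 272 WT cells (9.19%, 6.04 to 13.3) and 14 of 124 Clec7a-/- cells (11.3%, 6.31 to 18.2), intervals that overlap. Of the WT cells, 25 were in cluster 6, 17 in cluster 2 and 7 among monocyte-like cells, with at most 3 in any other cluster. Of the Clec7a-/- cells, 14 were in cluster 6 and 6 in cluster 5, with at most 2 in any other.

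**Figure D5:**
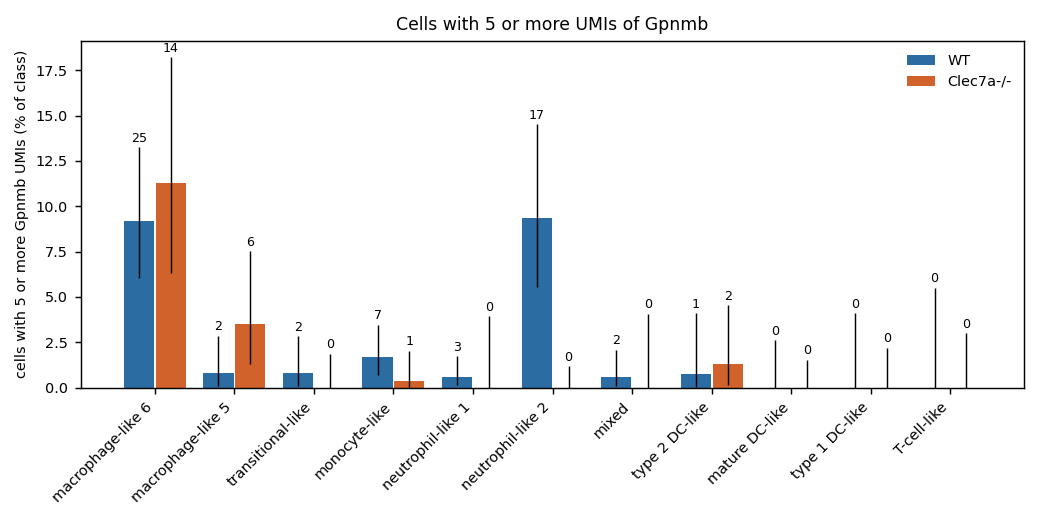
Percent of the cells of each class or cluster with at least 5 UMIs of Gpnmb, WT in blue and Clec7a-/- in orange, with exact binomial 95% intervals and the number of such cells above each bar. Neutrophil-like cluster 2 has 17 such cells in WT and 0 in Clec7a-/-, whereas macrophage-like cluster 6 has 25 and 14.

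Among DC-like cells, Lgals3 and Cd9 were found in all 3 classes and Fabp5 in mature and type 2 DC-like cells. Lgals3 was higher in Clec7a-/- cells of all 3 DC-like classes, at 0.62 (0.51 to 0.73) in mature DC-like, 0.58 (0.48 to 0.69) in type 2 DC-like and 0.36 (0.29 to 0.43) in type 1 DC-like cells. Fabp5 was lower, at -0.50 (-0.66 to -0.34) in mature DC-like and -0.71 (-1.10 to -0.32) in type 2 DC-like cells. In mature DC-like cells, 1 of 5 genes was higher (Lgals3) and 1 was lower (Spp1), against 3.13% and 4.44% of all genes. In type 2 DC-like cells, 1 of 5 was higher (Spp1) and 1 was lower (Fabp5), against 4.64% and 3.70%. In type 1 DC-like cells, 0 of 2 genes were higher or lower, against 6.30% and 4.29%. Single cells carried much of these Spp1 levels, since 1 cell held 34 of 63 UMIs in WT and 1 cell 30 of 42 in Clec7a-/- mature DC-like cells. In type 2 DC-like cells 1 Clec7a-/- cell held 75 of 92 Spp1 UMIs, so that call rested on 1 cell. In T-cell-like cells, 0 of 4 genes were higher and 2 (Spp1 and Cd9) were lower, against 3.01% and 5.46% of genes, and 1 WT cell held 58 of the 116 Spp1 UMIs there. The neutrophil markers together were at 5325 CPM in WT and 1850 CPM in Clec7a-/- T-cell-like cells, and their part in those ratios was not tested.

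Over all kept cells taken as 1 population, the 10 genes had a median ratio of -0.39, while all genes had 0.13. Here Trem2 was at 100.1 CPM in WT and 80.3 CPM in Clec7a-/- (-0.32) although its ratio in macrophage-like cells was -0.05. Macrophage-like cells made up 19.4% (17.9 to 20.9) of WT and 14.7% (13.2 to 16.3) of Clec7a-/- cells, and neutrophil-like cells 25.3% and 20.2%. Fewer cells of a class and less RNA per cell cannot be told apart in such a sum.

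Of 71 other lipid-handling genes in 6 lists, 53 had at least 100 UMIs in macrophage-like cells, and 1 was higher and 5 were lower, where 1.96% of all genes in that class were higher and 2.92% lower. These shares of all genes stand beside each list below. Their median ratio was -0.04 and that of all genes -0.01. In the list of the Trem2 complex and its signalling, 1 of 9 genes counted was lower, Trem1, an activating receptor of the same family (127 CPM in WT, 56.8 CPM in Clec7a-/-, -1.16, -1.47 to -0.87). Trem1 was highest in neutrophil-like cells (1322 CPM), and among the neutrophil markers in macrophage-like cells S100a8 had a ratio of -1.77 (239 to 69.9 CPM) and S100a9 -1.27 (354 to 147 CPM). Their part in the Trem1 ratio was not tested. The adaptor Tyrobp was at 2046 and 2065 CPM (0.01) and Adam17, a protease that sheds surface proteins, at 260.4 and 273 CPM (0.07). Of apolipoproteins and efflux genes 0 of 7 passed 1.5-fold, with Apoc2 at 0.20 and the sterol exporter Abcg1 at -0.12. Abcg1 was higher in monocyte-like (0.66, 0.39 to 0.93) and transitional-like cells (1.16, 0.69 to 1.64).

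Of the uptake genes 1 of 7 was lower, the scavenger receptor Cd36, at 429 CPM in WT and 226 CPM in Clec7a-/- macrophage-like cells (-0.92, -1.07 to -0.77). Cd36 was also lower in monocyte-like (-0.92) and transitional-like cells (-1.37). Axl was at -0.11, Msr1 at 0.16 and Stab1, the second highest ratio of all lists, at 0.40. Of the lysosomal lipid genes 0 of 8 passed, with Psap at 0.01 and Npc2 at 0.08. Outside macrophage-like cells, Lipa of this list was lower in monocyte-like (-0.93, -1.28 to -0.61) and transitional-like cells (-0.64, -0.84 to -0.44). Not all list genes past 1.5-fold in those other classes are given here. Of the storage genes 2 of 8 were lower, Dgat1, which makes triglycerides (-1.13, -1.58 to -0.71), and Hilpda, which restrains lipid breakdown in droplets (-0.63, -0.73 to -0.54). Hilpda was also lower in monocyte-like (-1.12), transitional-like (-0.62) and neutrophil-like cells (-1.45), and Cpt1a was at -0.04 in macrophage-like cells. In the list of other genes of lipid-associated macrophages, 1 of 14 was higher, the growth factor Igf1 (51.9 CPM in WT, 98.0 CPM in Clec7a-/-, 0.92, 0.63 to 1.20). In the same list 1 was lower, Csf1 (-0.79, -1.37 to -0.27), while the protease gene Ctsb (-0.07) and Cd63 (-0.04) differed little. Like Trem1, Csf1 was higher in neutrophil-like (192 CPM) than in macrophage-like cells (28.0 CPM), as was Dgat1 (317 against 50.1 CPM). The part of the neutrophil markers in the Csf1 and Dgat1 ratios was not tested.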

How the data were processed

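Per the labels and the study's methods, the authors made single-cell libraries with a 3' UMI kit and deposited raw UMI counts per gene and barcode, 1 matrix per library. The submitters' processing notes name Cell Ranger 2.1.1 and mm10, without saying which step used them, and the labels and the methods name different kits. From these counts, barcodes with 200 to 4000 genes and up to 5% mitochondrial UMIs were used. Doublets were not removed, since Scrublet (in scanpy 1.11.5) called 2 WT and 8 Clec7a-/- cells, too few for its call to have worked. Cells were clustered with Seurat 5.3.0 (20 components, resolution 0.7) without the 10 genes, the other lipid lists or sex-linked genes among the features, and named from marker lists. Macrophage-like cells were clustered again with 10 and with 20 components, at a resolution raised until at least 3 subclusters formed. The 10 genes and the lists were chosen with earlier results of these data known. Named were the 10 genes and the 5 genes most like Trem2. Of each of the 6 lists the 2 highest in macrophage-like cells were named. Over all lists the 2 with the largest ratio in each direction were named too. The remaining list genes past 1.5-fold in macrophage-like cells, Cd36, Hilpda and Csf1, were picked after their values were seen. So were Lipa in other classes and the lysosomal genes of Gpnmb-rich cells. Ratios used summed counts in Python 3.11.15 with NumPy 2.4.6 and SciPy 1.17.1, were tested on simulated data, and were recomputed under other filters, clusterings, scalings (edgeR 4.0.16 TMM), pseudocounts and minimums. No statistical test compared the libraries. Intervals and limits cover counting error only. Promoter windows for Fabp5 and Lpl were not used here.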

Additional observations from a re-analysis of the deposited data

Results flagged for a closer look

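For Spp1, the ratio of Clec7a-/- over WT had opposite signs in different classes, with 1.83 (log2) in neutrophil-like cluster 2 and 0.70 in type 2 DC-like cells, but -1.25 in mature DC-like and -3.79 in T-cell-like cells. For Lgals3 it was 0.62 in mature DC-like cells and -0.74 in neutrophil-like cluster 2. These differences between classes were not tested, as each class had 1 library per genotype. The Spp1 ratio of type 2 DC-like cells rested on 1 Clec7a-/- cell. In mature DC-like and T-cell-like cells single cells also held much of the Spp1 UMIs.

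The barcodes that the filter set aside, 771 in WT and 1081 in Clec7a-/-, enter no comparison of the report other than those recomputed under other filters on cells. In them Trem2 had a log2 ratio of -1.22, on 452 and 230 UMIs, against -0.32 in the cells kept. Abca1 had -0.61 there, against -0.43 in the cells kept.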

How the results depend on the processing

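Ratios between the libraries were recomputed in macrophage-like, monocyte-like, transitional-like and neutrophil-like cells. None of them changed from past 1.5-fold in one direction to the other under any alternative. The Gpnmb ratio of WT cluster 5 cells with over without a Trem2 UMI did change in this way with depth, as given above. In macrophage-like cells Apoe had a log2 ratio of 0.746 with up to 10% mitochondrial UMIs, 0.765 with 500 to 6000 genes, 0.686 with no filter on cells and 0.764 after reciprocal PCA integration, and ranged from 0.686 to 0.825 in all. Lpl there ranged from -0.843 (mean over cells) to -0.354, and 1 gene (Lpl) counted as lower with 30 components and with the mean over cells, against 0. Trem2 there ranged from -0.19 to 0.045. In transitional-like cells, against 0, 1 gene was lower (Gpnmb) with 10% mitochondrial UMIs, no filter, a resolution higher by 0.4, 30 components or a minimum of 20 UMIs, and 2 were lower with 500 to 6000 genes (Gpnmb, Fabp5) and after integration (Spp1, Gpnmb). In the same cells 1 (Apoe) was higher with no filter and with the top 5% of Scrublet scores removed. In neutrophil-like cells 1 (Apoe) was higher with 500 to 6000 genes, the mean over cells or a pseudocount of 5 UMIs, and Gpnmb ranged from -3.472 to -2.478. There 2 genes in place of 3 were lower, without Abca1, with no filter, the top Scrublet scores removed, integration, the mean over cells or the larger pseudocount, and Abca1 ranged from -0.725 to -0.296. The lower minimum adds genes by its construction, and for the other changes the cause was not tested. Under TMM scaling 2.41% of all genes were higher and 5.47% lower in monocyte-like cells (3.54% and 4.34% before), and 2.71% and 5.41% in transitional-like cells (3.94% and 3.94% before). Leaving out the cell with most UMIs of a gene, chosen after seeing the data, changed no call in these 4 classes. This took out 1 cell of each library, so the 17 Gpnmb-rich WT cells of cluster 2 were not left out together. No paired analysis was possible because each genotype had 1 library, and no replicate could be left out. Genes with few UMIs, such as Trem2 outside macrophage-like cells, allow wide differences at this depth.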
